A study of Mus musculus with 20 samples.

Results

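Leukocyte adhesion molecules and scavenger receptors of dermal lymphatic endothelial cells (LECs) were followed over the day in RNA-sequencing counts. The 10 genes are the selectins Sele and Selp, the immunoglobulin-superfamily molecules Icam1, Icam2, Vcam1, Alcam and L1cam, the CD99-like molecule Cd99l2, and the scavenger receptors Stab1 and Mrc1. They were taken by gene symbol from the count tables, and all 10 were present among 24062 symbols. All 10 also passed the filter on low counts that left 19209 genes for testing.

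LECs line the initial lymphatics through which dendritic cells and other leukocytes leave the skin. On vascular endothelium, selectins slow passing leukocytes by binding their sugars, immunoglobulin-superfamily molecules such as ICAM-1 and VCAM-1 hold them through integrins, and CD99-family molecules act while they cross between endothelial cells. Stabilin-1 (CLEVER-1, encoded by Stab1) and the mannose receptor CD206 (encoded by Mrc1) are endocytic receptors that macrophages and lymphatic endothelium share, and both also bind leukocytes on lymphatic endothelium. E-selectin, ICAM-1 and VCAM-1 are known as molecules that inflammatory cytokines induce through NF-κB.

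LECs had been sorted as CD31+podoplanin+ cells from the ear skin of wild type C57BL/6 mice (C57BL/6N in the study's methods) at post natal day 56, with no treatment named in the labels. The 4 groups differ only in zeitgeber time (ZT, hours from lights on): ZT1, ZT7, ZT13 and ZT19, with 5 libraries each. Each library pooled 4 ears of 2 mice, so n counts pools and values of single animals cannot be read from it. The full-length cDNA was amplified before library preparation.

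Reads counted on genes ranged from 4475111 to 42002363 per library (median 9379794), and the lowest and highest library of each time point were 5902909 and 8675905 at ZT1, 4475111 and 16936960 at ZT7, 4736532 and 42002363 at ZT13, and 10809823 and 36022409 at ZT19. Of the reads on a gene or on no gene, the share on genes was highest at ZT19 (35.01 to 81.6%), against 20.1 to 79.9% at ZT13, 12.7 to 62.3% at ZT7 and 20.2 to 29.5% at ZT1. It exceeded 50% in 6 libraries: ZT7 replicate 2, ZT13 replicate 5 and ZT19 replicates 1, 2, 3 and 5. Fewest genes were detected at ZT19 (12477 to 18768, against 19055 to 21525 at ZT1). The lymphatic markers Prox1, Lyve1, Flt4, Pdpn, Pecam1, Mmrn1 and Reln had counts in every library, whereas Ccl21a had 0 counts in all 20; the mouse genome carries near-identical Ccl21 copies, and reads that match several places were not counted. Keratinocyte markers were present as well, with a summed normalized count of 9821 to 29468 at ZT13 and 88902 to 178126 at ZT19 (ZT1, 32596 to 66564; ZT7, 57130 to 171553).

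Per length of transcript, Icam2, Stab1 and Icam1 stood highest of the 10 genes and Sele, Vcam1 and Selp lowest. Levels were set against each other as normalized counts per kb of the longest coding transcript, where a normalized count is the count divided by the relative effective library size. The median over 20 libraries was 658 per kb for Icam2 (range 269.5 to 1738), 448 for Stab1 (241 to 958), 229 for Icam1 (89.5 to 672), 103 for Cd99l2 (19.3 to 432) and 82.9 for Mrc1 (22.2 to 158). It was 50.4 per kb for L1cam (12.8 to 106), 28.5 for Alcam (0 to 222), 14.7 for Sele (0 to 219), 12.97 for Vcam1 (0 to 52.3) and 6.87 for Selp (0 to 45.6). On the same scale, the lymphatic markers Lyve1, Pecam1 and Prox1 had medians of 5644, 1212 and 325 per kb.

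Neighbours in this order overlapped. Icam2 was above Stab1 in 14 of 20 libraries, Stab1 above Icam1 in 15, Icam1 above Cd99l2 in 16, Cd99l2 above Mrc1 in 13, Mrc1 above L1cam in 13, L1cam above Alcam in 14, Alcam above Sele in 15, Sele above Vcam1 in 12 and Vcam1 above Selp in 12. The ranges of every pair of neighbours overlapped, so no step of the order lay beyond the spread between libraries. With the median transcript length of each gene in place of the longest, Stab1 came first, Icam2 next, then L1cam and Icam1, and Sele last.

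As a reference for stray reads, 1416 olfactory and vomeronasal receptor genes, which LECs are not known to use, averaged a median of 1.65 per kb over the libraries (0.0192 to 7.58). Icam1, Icam2 and Stab1 exceeded 10 times this average in 20 of 20 libraries, and L1cam, Cd99l2 and Mrc1 did so in 19. Alcam exceeded it in 13 libraries, Vcam1 in 8, Sele in 6 and Selp in 4. Sele, Selp and Vcam1 thus lay within 10 times the level of the receptor genes in most libraries.

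**Figure D1:**
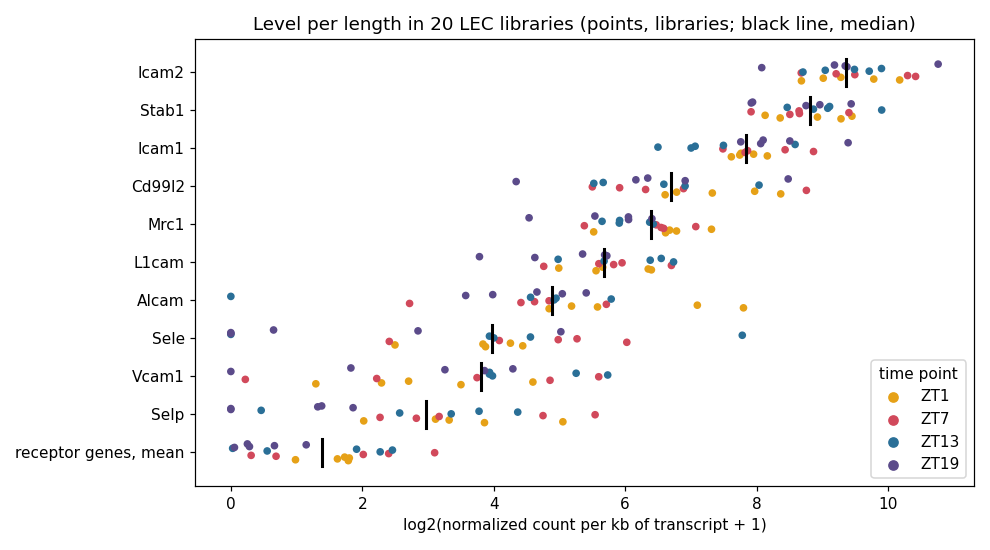
Level of each gene per kb of its longest coding transcript, as log2(normalized count per kb + 1), in 20 LEC libraries (points, coloured by time point; black line, median), with the mean of 1416 olfactory and vomeronasal receptor genes in the bottom row. Icam2 (median 658 per kb), Stab1 (448) and Icam1 (229) lie to the right, and Selp (6.87) lies nearest to the receptor genes (1.65).

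No member differed between time points in edgeR's quasi-likelihood tests at an adjusted p under 0.05. Among the 4 time points, 0 of 10 passed, where 0.422% of all genes tested did. Between pairs, 0 of 10 passed in each of the 6 comparisons, where 0.00521% of all genes did for ZT1 and ZT7, 0.0208% for ZT1 and ZT13, 0.0156% for ZT1 and ZT19, 0.0937% for ZT7 and ZT13, 0.0156% for ZT7 and ZT19 and 0.588% for ZT13 and ZT19. For a curve with a period of 24 h, 0 of 10 passed, against 0.0312% of all genes. With so few genes passing, a list of 10 would hold few calls in any case.

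Without adjustment, at p of 0.05 or less, 1 member passed among the 4 time points (Alcam, adjusted p = 0.312), against 15.7% of all genes, and 0 passed for the 24-h curve, against 9.23%. Between pairs, the count was 1 for ZT1 and ZT7 (Alcam, background 4.97%), 1 for ZT1 and ZT13 (Alcam, 5.37%), 3 for ZT1 and ZT19 (Selp, Alcam and Mrc1, 21.6%), 0 for ZT7 and ZT13 (2.59%), 1 for ZT7 and ZT19 (Selp, 19.7%) and 3 for ZT13 and ZT19 (Icam1, L1cam and Selp, 19.2%). DESeq2, the tool that the study used, called 0 members among the 4 time points (3.22% of all genes with an adjusted p), for ZT1 and ZT7 (0.137%), for ZT1 and ZT13 (0.624%), for ZT7 and ZT13 (0.589%) and for the 24-h curve (0.683%). It gave no adjusted p to Sele, Selp and Vcam1 for ZT1 and ZT7, for ZT1 and ZT13 and for the 24-h curve, so those counts cover the other 7 members. It called 1 member, Selp, in each comparison with ZT19, where it called 10.4% of all genes against ZT1, 10.8% against ZT7 and 9.26% against ZT13. The share called in edgeR rested on single libraries in some pairs: for ZT1 and ZT19, 3 genes of all were called with all libraries, 902 without ZT19 replicate 4 and 191 without ZT13 replicate 5.

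The time points of lowest and highest mean were set beside those of all genes. The mean was lowest at ZT19 for 6 of the 10 (Sele, Selp, Vcam1, Alcam, L1cam and Mrc1), where 46% of all genes had their lowest mean. It was lowest at ZT13 for Icam1, Icam2 and Cd99l2 (20% of all genes) and at ZT7 for Stab1 (17.4%). The highest mean was at ZT13 for Sele, Vcam1, L1cam and Stab1 (18.1% of all genes), at ZT1 for Alcam, Cd99l2 and Mrc1 (27.2%), at ZT7 for Selp and Icam2 (27.7%) and at ZT19 for Icam1 (27%). From ZT1 to ZT19 the median fitted log2 difference was -0.63 over the 10 members and -0.39 over all genes, from ZT7 to ZT19 it was -0.43 and -0.20, and from ZT13 to ZT19 it was -0.34 and -0.22. In these bulk libraries, fewer cells of a type and less RNA per cell cannot be told apart.

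**Figure D2:**
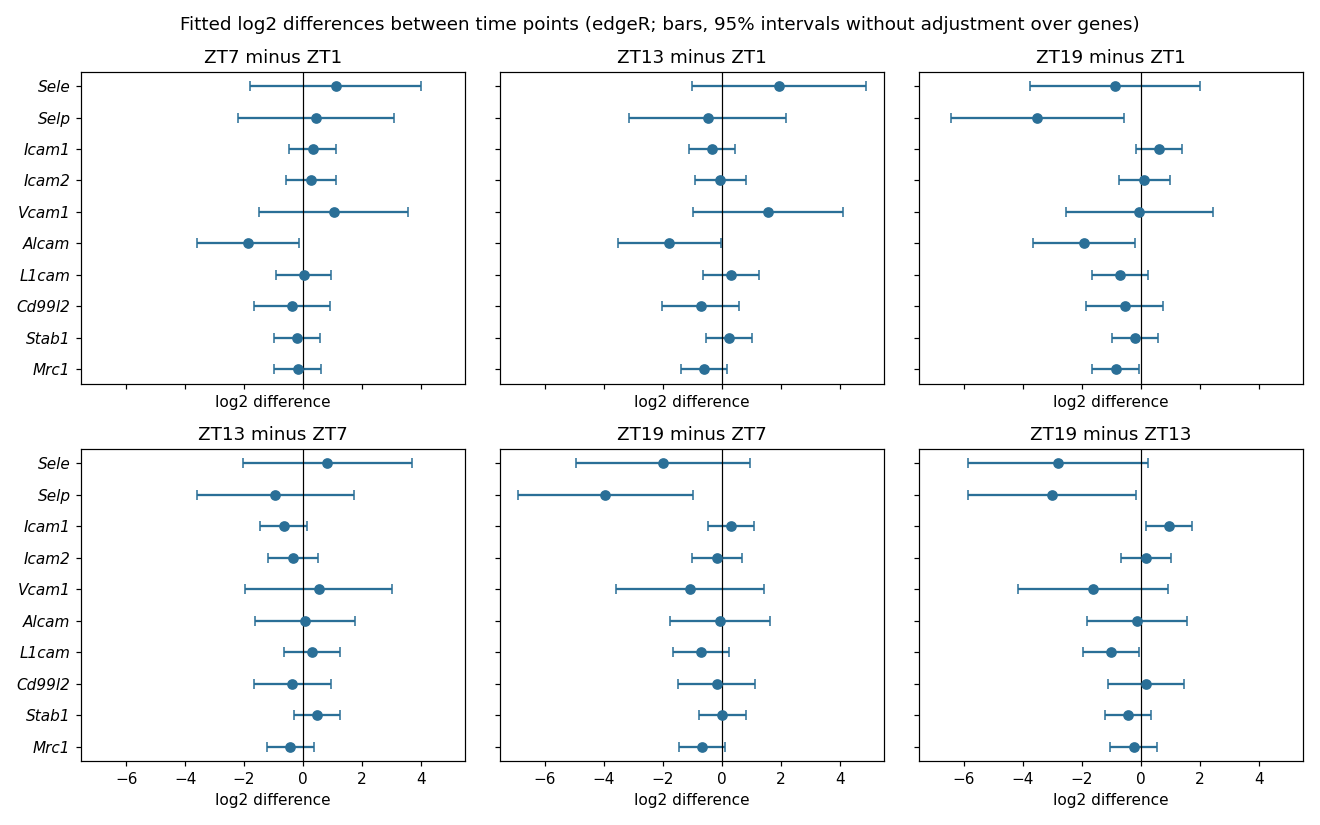
Fitted log2 differences between time points for the 10 genes, later minus earlier time point, from edgeR over 20 libraries (points, estimates; bars, 95% intervals without adjustment over genes). The intervals of Sele, Selp and Vcam1 are the widest, those of Icam1, Icam2, Stab1 and Mrc1 are narrower, and Selp has the lowest estimate, -3.96 for ZT19 minus ZT7.

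Selp, which encodes P-selectin, stood lowest at ZT19, where all 5 libraries were below all 5 of ZT1 and all 5 of ZT7. Its normalized counts by replicate were 46.5, 111, 10.5, 31.0 and 26.3 at ZT1, and 20.9, 13.1, 27.5, 89.1 and 157 at ZT7. They were 31.7, 17.0, 67.4, 43.7 and 1.30 at ZT13, and 0, 0, 9.04, 5.16 and 5.52 at ZT19. ZT13 overlapped ZT19 through its replicate 5 alone. Selp was the only member whose libraries did not overlap between 2 time points; over all genes, 8.56% did not overlap between ZT1 and ZT19 and 1.94% between ZT7 and ZT19. No member was apart in the other pairs, where 1.75% of all genes were for ZT1 and ZT7, 1.47% for ZT1 and ZT13, 1% for ZT7 and ZT13 and 2.48% for ZT13 and ZT19. The gap rested on few reads: the lowest library of ZT1 held 7 reads and the highest of ZT19 held 14, in a library of greater depth.

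The fitted log2 difference of Selp was -3.96 (SE 1.45) from ZT7 to ZT19, with an adjusted p of 0.142 in edgeR, -3.51 (SE 1.42) from ZT1 to ZT19 with an adjusted p of 0.152, and -3.02 (SE 1.40) from ZT13 to ZT19 with an adjusted p of 0.232. With each library left out in turn, the difference from ZT7 to ZT19 ran from -4.54 (without ZT19 replicate 3) to -3.24 (without ZT7 replicate 5), with adjusted p of 0.0854 to 0.337 in edgeR. DESeq2 gave -4.42, -3.64 and -3.32 with adjusted p of 0.0043, 0.0241 and 0.0423. Between ZT1, ZT7 and ZT13 the edgeR estimates lay between -0.94 and 0.45, with standard errors of 1.29 to 1.30.

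Sele, which encodes E-selectin, was at 0 counts in 3 libraries and reached its highest value in 1 library of ZT13. The normalized counts were 39.8, 60.4, 13.5, 38.7 and 52.7 at ZT1, and 187, 12.6, 46.5, 89.1 and 109 at ZT7. At ZT13 they were 43.8, 65.7, 41.7, 639 and 0, and at ZT19 they were 0, 0, 91.7, 18.1 and 1.66. ZT19 reached from the lowest values of the series up into the range of ZT7, so the groups overlapped. The log2 difference from ZT13 to ZT19 was -2.83 (SE 1.49, adjusted p = 0.299 in edgeR), and it was -0.76 without ZT13 replicate 4, the library at 639, and -5.10 without ZT19 replicate 3, the library at 91.7.

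**Figure D3:**
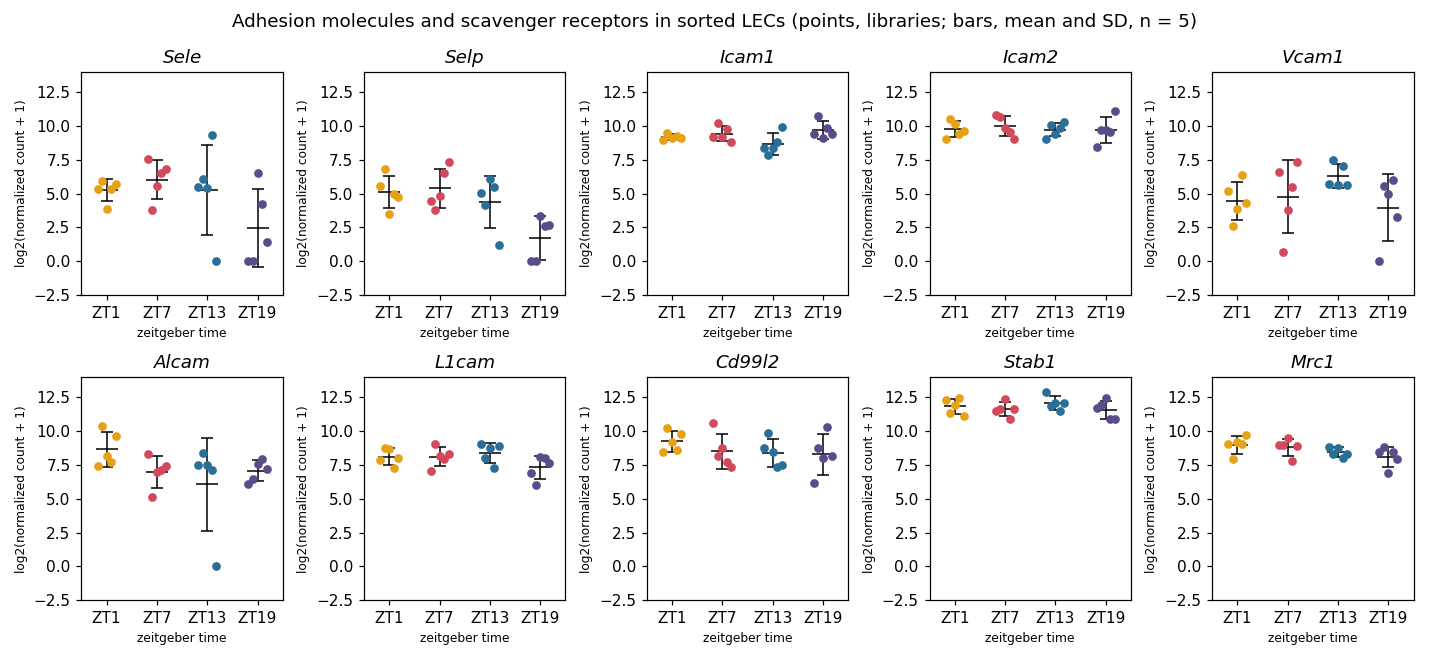
Log2(normalized count + 1) of the 10 genes by zeitgeber time (points, libraries in replicate order; bars, mean and SD, n = 5 per time point). The 5 Selp values of ZT19, from 0 to 9.04 normalized counts, lie below all values of ZT1 and ZT7, and Stab1 stays between 1925 and 7662 normalized counts in all 20 libraries.

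The 0 counts of the selectins fell in libraries with a high share of reads on genes. Sele was at 0 in ZT13 replicate 5 and ZT19 replicates 1 and 2, where 79.9%, 81.6% and 64.0% of reads were on genes, and Selp was at 0 in the same libraries of ZT19. Selp had 6 reads in ZT13 replicate 5. These libraries were not shallow: a count of 0 there allows at most 0.648, 0.766 and 0.991 normalized counts, taking 3 counts as the limit for counting error alone. Of all genes, 43.4% had 0 counts in at least 1 library, as did 4 of the 10 members (Sele, Selp, Vcam1 and Alcam).

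Over the 20 libraries, Selp was lower where a larger share of reads was on genes. Its log2(normalized count + 1) and the log2 odds of on-gene reads (reads on a gene over reads on no gene) gave Pearson's r = -0.853 and Spearman's rho = -0.804 (permutation p = 2e-05 and 0.00011, adjusted p = 0.0006 and 0.0022 over 40 relations of the 10 members to 4 library properties). The relation was r = -0.753 within time points (permutation adjusted p = 0.0384) and r = -0.767 without the 2 libraries farthest from the median. For Sele it was r = -0.770 over the libraries (permutation adjusted p = 0.00293), rho = -0.575 (adjusted p = 0.0818) and r = -0.684 within time points (permutation adjusted p = 0.127). Stab1 gave r = -0.0493 on the same measure (permutation adjusted p = 0.902).

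Markers of other cells moved with the selectins as well. The macrophage score, the mean of log2(normalized count + 1) over 11 markers, gave r = 0.834 and rho = 0.826 with Selp and r = 0.717 within time points (permutation adjusted p = 0.0006, 0.0022 and 0.0384). With Sele it gave r = 0.695 over the libraries and r = 0.563 within time points (permutation adjusted p = 0.0068 and 0.15). The blood endothelial score of 10 markers gave r = 0.651 with Selp and 0.637 with Sele (permutation adjusted p = 0.0154 and 0.0167), and 0.602 and 0.563 within time points (permutation adjusted p = 0.127 and 0.263). Of the blood endothelial markers, Ackr1, which marks the venules where P-selectin is best known, was at 0 in 10 of 20 libraries and reached at most 107 normalized counts; the summed level of the list was 4612 to 5364 at ZT19, against 4342 to 9869 at ZT13, 3676 to 7013 at ZT7 and 4039 to 6605 at ZT1.

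Platelets, which store P-selectin, and other leukocytes were followed by their markers too. The summed normalized count of 5 platelet markers was 0.51 to 167 at ZT19, against 9.54 to 226.5 at ZT13, 119 to 425 at ZT7 and 89.8 to 453 at ZT1. Among them Ppbp was at 0 in 9 libraries, Gp9 in 8, Gp1bb in 6 and Pf4 in 3. The sum over 8 markers of other leukocytes was 3.57 to 208 at ZT19, against 59.6 to 609 at ZT13, 85.75 to 698 at ZT7 and 203 to 611 at ZT1. All but Cd74, which was at 0 in 1 library, were at 0 in 3 to 7 libraries. The part of these cells in the selectin counts was not tested.

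With the log2 odds of on-gene reads as a covariate in edgeR, the log2 difference of Selp from ZT7 to ZT19 was -1.57 (adjusted p = 0.749) and that of Sele from ZT13 to ZT19 was -0.09 (adjusted p = 0.995). With the macrophage score as a covariate the values were -2.03 (adjusted p = 0.842) and -1.72 (adjusted p = 0.684). Without the 6 libraries with more than 50% of reads on genes they were -3.71 and -3.41 (adjusted p = 0.623 and 0.664), a fit in which ZT19 keeps 1 library that is assumed to vary like the others. The part of library composition in the low selectin counts of ZT19 was not tested beyond these values.

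**Figure D4:**
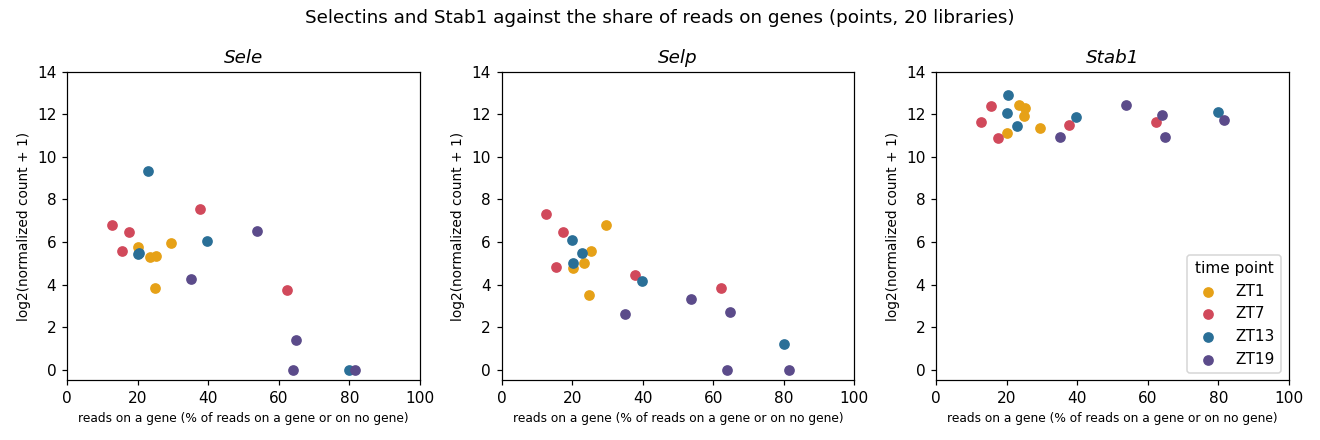
Log2(normalized count + 1) of Sele, Selp and Stab1 against the percentage of reads on a gene among reads on a gene or on no gene, in 20 libraries coloured by time point. Sele and Selp run down to 0 at the right (r = -0.770 and -0.853 with the log2 odds of this share), whereas Stab1 does not (r = -0.0493).

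The selectins also moved with each other, with r = 0.824 and rho = 0.658 over the 20 libraries (permutation adjusted p = 0.0009 and 0.0499 over the 45 pairs of members) and r = 0.755 within time points (permutation adjusted p = 0.0319). Without the 2 libraries farthest from the median of Sele it was r = 0.694 with a permutation adjusted p of 0.0585. Sele and Selp lie 57.6 kb apart on the plus strand of chromosome 1 (GRCm38, Sele at chr1:164048234-164057677 and Selp at chr1:164115264-164150026). Both were at 0 in ZT19 replicates 1 and 2, which had a high share of reads on genes. ZT1 replicate 3, with 24.8% of reads on genes, was also low in both genes, at 13.5 and 10.5 normalized counts, and ZT19 replicate 3, with 53.7%, held Sele at 91.7. How much of the relation between the selectins comes from that share was not tested.

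The 250 bases before the start sites of Sele, Selp and Icam1 are shown because Sele and Icam1 are known targets of NF-κB and Selp is the neighbour of Sele. They come from RefSeq (GRCm38.p6, plus strand, Sele at chr1:164047984-164048233, Selp at chr1:164115014-164115263 and Icam1 at chr9:21015690-21015939), which had a window of 250 bases before to 50 bases after the start for 8 of the 10 members, all but Icam2 and Vcam1. Capitals mark matches to GGNNNTTCC, a loose form of the NF-κB motif, and to TATAAA, the TATA box, on either strand.
Sele: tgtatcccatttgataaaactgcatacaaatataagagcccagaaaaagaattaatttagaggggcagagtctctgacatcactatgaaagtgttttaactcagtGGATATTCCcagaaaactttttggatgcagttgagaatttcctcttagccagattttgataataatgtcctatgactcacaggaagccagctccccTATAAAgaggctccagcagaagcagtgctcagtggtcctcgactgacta
Selp: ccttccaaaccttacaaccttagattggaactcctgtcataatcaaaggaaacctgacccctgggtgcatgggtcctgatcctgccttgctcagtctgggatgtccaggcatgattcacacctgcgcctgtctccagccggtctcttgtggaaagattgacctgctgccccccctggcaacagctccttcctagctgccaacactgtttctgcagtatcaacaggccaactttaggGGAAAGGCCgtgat
Icam1: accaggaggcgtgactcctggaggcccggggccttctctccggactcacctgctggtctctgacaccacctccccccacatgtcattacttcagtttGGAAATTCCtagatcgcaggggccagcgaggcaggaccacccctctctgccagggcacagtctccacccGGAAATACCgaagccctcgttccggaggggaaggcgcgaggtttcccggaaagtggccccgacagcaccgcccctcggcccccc

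Sele held the TATA box with its first base at -49 from the start site and 1 loose NF-κB match at -145, Selp held 1 loose match at -14, and Icam1 held matches at -153 and -84, the first of which matched the loose motif on both strands. Mrc1 was the only other member with a loose match, at -74, so 4 of 8 members with a window held one, against 18.5% of the 32851 windows of all genes. A longer NF-κB form of 10 bases was in 0 of the 8 windows and in 1.63% of all windows. The E-box CACGTG, to which CLOCK and BMAL1 bind, was in 0 of 8 and in 7.15% of all windows, and TATAAA was in 2 of 8 and in 13.6%. Of these, the match of Icam1 began at 14 after the RefSeq start site, outside the printed bases. GENCODE M21 starts Icam1 further on, at chr9:21015985, so the same match lies before that start. Positions here count from the RefSeq starts, which for Icam1 and Mrc1 differ from those of GENCODE. Which start the LECs use was not tested. A match is a description of these letters and not a bound site, and a window without one says nothing of the factor.

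Icam1, which encodes the integrin ligand ICAM-1, was high in all libraries and was the only member with its highest mean at ZT19. Its normalized counts were 495, 725, 541, 627 and 548 at ZT1, and 573, 1182, 588, 875 and 453 at ZT7. They were 323, 227, 337, 455 and 972 at ZT13, and 676, 1703, 547, 919.6 and 693 at ZT19. The libraries of ZT13 lay below all of ZT19 except replicate 5, which lay above 4 of them. The means were 587 ± 90.2 (SD, n = 5), 734 ± 294, 463 ± 296 and 908 ± 464.

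From ZT13 to ZT19 the log2 difference of Icam1 was 0.97 (SE 0.38, 95% interval 0.18 to 1.75 without adjustment over genes, adjusted p = 0.164 in edgeR). Without ZT13 replicate 5 it was 1.44 with an adjusted p of 0.0427, in a fit that called 853 genes of all for this pair against 113 with all libraries. Each of the other 19 libraries left out in turn gave no call, with the lowest value, 0.61, without ZT19 replicate 2 (highest adjusted p over these fits, 0.398). With the keratinocyte score as a covariate the difference was 1.37 (adjusted p = 0.13), and with the log2 odds of on-gene reads it was 0.72 (adjusted p = 0.37). Over the 20 libraries, Icam1 and the log2 odds of on-gene reads gave r = 0.486 (permutation adjusted p = 0.146), opposite in sign to the selectins.

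Icam2, which encodes the constitutive integrin ligand ICAM-2, showed no order of the time points beyond the spread between libraries. The lowest, median and highest normalized counts were 526, 797 and 1485 at ZT1 and 525, 925 and 1756 at ZT7. They were 534, 921 and 1225 at ZT13 and 346, 835 and 2228 at ZT19, and the ranges of all time points overlapped. All 6 log2 differences lay between -0.33 and 0.28, each with an SE of 0.42, and the adjusted p among the 4 time points was 0.95 in edgeR. The widest, from ZT7 to ZT13, ran from -0.51 without ZT7 replicate 5 to -0.11 without ZT7 replicate 1.

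Vcam1, which encodes the ligand of integrin α4β1, was low and uneven. The normalized counts were 35.8, 5.03, 13.5, 80.5 and 19.2 at ZT1, and 97.1, 0.572, 12.7, 43.1 and 165 at ZT7. They were 51.3, 181, 49.6, 129 and 49.7 at ZT13, and 0, 46.9, 29.7, 64.5 and 8.84 at ZT19. ZT13 was the one time point with no library under 49.6 normalized counts, and it overlapped each of the others. The widest difference, from ZT13 to ZT19, was -1.62 on the log2 scale (SE 1.24, adjusted p = 0.483 in edgeR), and 2 libraries had under 3 reads. It was -2.10 without ZT19 replicate 4 and -1.22 without ZT13 replicate 2. With the keratinocyte score as a covariate this difference was -0.51 (adjusted p = 0.905).

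Alcam, which encodes ALCAM (CD166), a ligand of CD6, was uneven at ZT1 and had 0 counts in 1 library of ZT13. Its normalized counts were 167, 1340.4, 283, 214 and 821 at ZT1, and 311, 33.7, 123, 143 and 167 at ZT7. At ZT13 they were 177, 328, 180.5, 136 and 0, and at ZT19 65.8, 89.6, 193, 250.2 and 146. The high mean of ZT1 rested on replicates 2 and 5, and the other 3 libraries of ZT1 lay within the range of the later time points. The log2 difference from ZT1 was -1.86 (SE 0.85) to ZT7, -1.79 (SE 0.85) to ZT13 and -1.93 (SE 0.85) to ZT19, with adjusted p of 0.949, 0.903 and 0.184 in edgeR. The last value was -1.32 without ZT1 replicate 2 and -2.20 without ZT19 replicate 4, and with the log2 odds of on-gene reads as a covariate it was -0.77 (adjusted p = 0.892).

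L1cam, which encodes the homophilic adhesion molecule L1CAM, had lowest, median and highest normalized counts of 158, 254 and 428 at ZT1 and 134, 286 and 529 at ZT7. They were 157, 422 and 542 at ZT13 and 65.4, 204 and 265 at ZT19. The highest value of ZT19 lay below the medians of ZT7 and ZT13, and all groups overlapped. The log2 difference from ZT13 to ZT19 was -1.02 (SE 0.46, adjusted p = 0.224 in edgeR), one of the 3 members below 0.05 before adjustment in this pair, where 19.2% of all genes were. Leaving out each library in turn gave -1.21 to -0.80. Without the 6 libraries with more than 50% of reads on genes it was -0.36 (adjusted p = 0.848), and with the keratinocyte score as a covariate it was -1.90 (adjusted p = 0.0899). L1cam shares 100 of its 7347 exon bases with Arhgap4 on the same strand, whose reads cannot be assigned to either gene.

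Cd99l2, which encodes a CD99-like molecule of endothelial junctions, varied widely within time points. Its lowest, median and highest normalized counts were 348, 574 and 1186 at ZT1 and 159, 282 and 1556 at ZT7. They were 162, 343 and 943 at ZT13 and 69.4, 289 and 1283 at ZT19. The coefficient of variation ran from 52.4% at ZT1 to 111% at ZT7. The widest log2 difference, from ZT1 to ZT13, was -0.73 (SE 0.64, adjusted p = 0.9998 in edgeR), and it ran from -1.30 without ZT13 replicate 2 to -0.44 without ZT1 replicate 2. Its relative Cd99 had no row of that name and was not analysed here.

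Stab1 was the most abundant member by count and one of the steadiest. Its normalized counts were 4985, 2620.3, 3886, 5596 and 2234 at ZT1, and 2903, 3212, 5420.4, 1925 and 3199 at ZT7. They were 7662, 3726, 4332, 2823 and 4419 at ZT13, and 3444, 3986, 5549, 1929.6 and 1957 at ZT19. The coefficient of variation within time points was 37.6 to 45.0%, and each time point overlapped the others. All 6 log2 differences lay between -0.44 and 0.46 with an SE of 0.38, and their 95% intervals reached from -1.23 at the lowest bound to 1.25 at the highest, so a change of more than that size lay outside the interval of each pair. The widest, from ZT7 to ZT13, was 0.20 without ZT13 replicate 1 and 0.71 without ZT7 replicate 3.

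Mrc1 had its highest mean at ZT1 and its lowest at ZT19. The normalized counts were 522, 242, 586, 545 and 850.1 at ZT1, and 511, 497, 719, 218 and 472 at ZT7. They were 457, 318, 440.3, 264 and 319 at ZT13, and 351, 451, 119.5, 351 and 245 at ZT19. Replicate 2 of ZT1 lay within the range of ZT19, and the other 4 libraries of ZT1 lay above all of ZT19. The log2 difference from ZT1 to ZT19 was -0.85 (SE 0.39, adjusted p = 0.198 in edgeR), with values of -1.05 to -0.60 when each library was left out in turn. Mrc1 was one of the 3 members below 0.05 before adjustment in this pair, where 21.6% of all genes were.

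Because macrophages also carry Mrc1 and Stab1, their markers were set beside both genes. Of 12 listed macrophage markers, 11 had a row, and their summed normalized count was 337 to 941 at ZT19, against 650.0 to 1230 at ZT13, 501 to 1214 at ZT7 and 506 to 912 at ZT1. Of these, 9 were each at 0 in 3 to 10 libraries, among them Csf1r in 4, C1qa in 5, C1qb in 9, C1qc in 10 and Cd163 in 5. In ZT19 replicate 1 all 9 were at 0, while Mrc1 was at 351 and Stab1 at 3444 normalized counts.

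Summed over Csf1r, C1qa, C1qb, C1qc, Fcgr1, Lyz2, Cd163 and Folr2, 8 markers chosen after their values were seen, the median over libraries was 116.6 normalized counts (0 to 421), and Mrc1 exceeded this sum in 19 of 20 libraries, all but ZT7 replicate 4. The macrophage score gave r = 0.139 with Mrc1 and -0.247 within time points (permutation adjusted p = 0.803 and 0.671). With Stab1 it gave r = 0.0534 and -0.0157 (permutation adjusted p = 0.902 and 0.961).

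**Figure D5:**
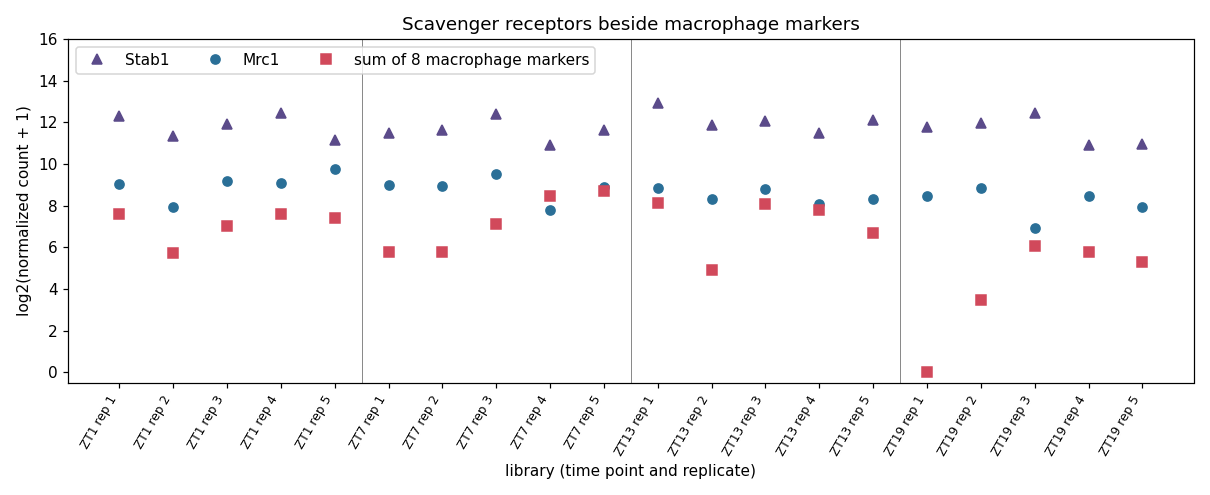
Log2(normalized count + 1) of Stab1, Mrc1 and the sum of 8 macrophage markers in each library, ordered by time point and replicate. Stab1 and Mrc1 keep their levels in ZT19 replicate 1, where the sum of the markers is 0, and Mrc1 lies below the sum in ZT7 replicate 4 alone.

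The molecules that these receptors bind, or that belong to the same families, gave 0 calls in edgeR. Of 12 leukocyte-side ligands, which include the integrin subunits and Selplg, the ligand of P-selectin, 0 passed among the 4 time points and 3 did so before adjustment. The counts were 0 and 3 for 15 other endothelial adhesion genes, 0 and 2 for 14 relatives of the members, and 0 and 2 for 7 genes of NF-κB and its cytokine receptors, where 0.422% and 15.7% of all genes passed. None of these genes passed between any pair of time points or for the 24-h curve either. DESeq2 called Nfkbia alone among the 4 time points, from ZT1 to ZT13 and for the 24-h curve, and none of the partners from ZT1 to ZT7 or from ZT7 to ZT13, counted over those to which it gave an adjusted p. From ZT1 to ZT19, where it called 10.4% of all genes, it called 3 ligands (Itgb2, Itga4 and Spn), 2 other adhesion genes (Cdh5 and Podxl), 2 relatives (Pla2r1 and Nfasc) and Nfkbia. From ZT7 to ZT19, with 10.8% of all genes called, it called 4 ligands (Itgam, Itgb2, Itga4 and Spn), 2 other adhesion genes (Madcam1 and Podxl) and 5 relatives (Stab2, Pla2r1, Msr1, Nrcam and Nfasc). From ZT13 to ZT19, with 9.26% called, it called 3 ligands (Itgb2, Itga4 and Spn), 3 other adhesion genes (Jam2, Cdh5 and Bcam), 3 relatives (Stab2, Nrcam and Nfasc) and Nfkb1.

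The gene with the smallest p among the 4 time points in each of these lists was named. Itga4, the α4 chain that binds VCAM-1, had mean normalized counts of 161 ± 53.4, 125 ± 32.6, 209 ± 182 and 45.7 ± 23.4 from ZT1 to ZT19 (SD, n = 5, adjusted p = 0.248 in edgeR). Bcam, a laminin receptor, had 680.0 ± 55.9, 901 ± 315, 451 ± 235 and 1232 ± 493 (adjusted p = 0.203), with its lowest mean at ZT13 and its highest at ZT19 as Icam1 had. Nrcam, a relative of L1cam, had 390.5 ± 200.3, 433 ± 48.6, 559 ± 224 and 166 ± 118 (adjusted p = 0.238). Nfkb1, which encodes an NF-κB subunit, had 991 ± 430.1, 659 ± 249, 1117 ± 305 and 527 ± 221 (adjusted p = 0.244), opposite in order to Icam1.

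For the 6 members with at least 3 counts in every library, the genes whose log2 levels deviated most alike from the time-point means were sought among 12562 genes with a mean normalized count of 50 or more. The values given are r of these deviations within time points, with r over the 20 libraries, time points included, added where it was under 0.5. Icam1 was most like Prox1 (0.828, but 0.245 over the libraries), Akap8l (0.773) and Ralb (0.772), and Icam2 was most like Akr1a1 (0.884), Tagln2 (0.884) and Dnajc3 (0.881). L1cam was most like Zfp956 (0.807), Dis3 (0.789) and Ddx31 (0.748), and Cd99l2 most like Svip (0.956), Cmip (0.925) and Tubb5 (0.896). Stab1 was most like Fndc1 (0.857), Flna (0.857) and Atp2a2 (0.850), and Mrc1 most like Pigl (0.738), Cyp4f13 (0.737, but 0.244 over the libraries) and D930048N14Rik (0.704, but 0.451). These are descriptions over the same 20 libraries, whose depth and composition all genes share. The genes named are the highest of 12562 compared, and how high such values run by chance was not tested.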

How the data were processed

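RNA of sorted dermal LECs was sequenced in 20 libraries, which were grouped by the time point in their titles. Per the labels and the study's methods, the authors aligned with STAR (build mm10), made gene counts by HTSeq (version 1.0.0) and used DESeq2 (listed as version 2.11.40.6). The deposited values are raw counts per gene symbol; rows for reads on no gene, ambiguous, not aligned or not unique (11.8 to 32.9%, 0.0783 to 1.30%, 14.3 to 44.9% and 15.4 to 52.7% of the total) were kept out of library sizes and tests. The kit does not mark strand, so reads of overlapping genes on opposite strands cannot be told apart (Selp and Gm16548 share 438 exon bases, Stab1 and Nt5dc2 share 112).

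Here, counts were fitted with edgeR 4.0.16 in R 4.3.3 (TMM, filterByExpr by time point, quasi-likelihood F-test, Benjamini-Hochberg adjustment over 19209 genes, threshold 0.05) over all 20 libraries. Tests covered the 4 time points, 6 pairs and a 24-h cosine curve. For normalized counts, each library was scaled by its effective size over the geometric mean of all; log2 values used a pseudocount of 1. Library relations were tested with 100000 two-sided permutations, those between members being added after the values were seen. The cDNA was amplified without molecular identifiers, so limits from 3 counts cover counting error only. The fits were tested on simulated data. Loci and lengths were taken from GENCODE M21 (GRCm38).

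Named genes are the 10 members, the partner gene with the smallest p of each list and the 3 genes most alike to a member; genes named beside DESeq2's calls and the 8 macrophage markers were chosen after their values were seen. The members and lists were chosen with earlier results of these data known. Alternatives were DESeq2 1.42.0, other normalizations, filters and covariates, the replicate number as a block, fits of 2 time points, and libraries left out. Replicates are separate pools of mice.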

Additional observations from a re-analysis of the deposited data

Results flagged for a closer look

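Alcam was examined together with the other members in 40 groups of 5 libraries, where the gap of the highest or lowest library to its neighbour was set against the range of the group on the log2 scale. In 1 group this share exceeded the critical value of 0.71, where about 2 in 40 would do so by chance. Alcam had 0 counts in ZT13 replicate 5, and the gap to the next library made up 0.85 of the range at ZT13. That library is the deepest of the series, and 79.9% of its reads on a gene or on no gene were on genes; Sele had 0 counts and Selp 6 in it as well. The part of these properties in the value was not tested.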

How the results depend on the processing

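No log2 difference of a member changed sign under the alternatives run, each tried on the pair of time points with the member's smallest p. DESeq2 called 1 member, Selp, for ZT1 and ZT19, for ZT7 and ZT19 and for ZT13 and ZT19, where edgeR called 0. Leaving out 1 library in turn gave 0 members called in every comparison except ZT13 and ZT19, where the count was 0 to 1 (Icam1, without ZT13 replicate 5); the number of all genes called there ran from 63 (without ZT19 replicate 5) to 853 (without ZT13 replicate 5). It ran from 0 to 902 for ZT1 and ZT19 (902 without ZT19 replicate 4), from 30 to 178 among the 4 time points (without ZT13 replicate 4 and without ZT19 replicate 4), from 2 to 36 for ZT7 and ZT13 (without ZT7 replicate 2 and without ZT13 replicate 3) and within 0 to 10 in the others. Within time points, 2 of the 40 relations to library properties passed, against 7 over all libraries. A replicate block changed no call, with 0 members in each comparison and Selp from ZT7 to ZT19 at -4.15 (adjusted p = 0.213 in edgeR). No pair of time points had all 5 correlations of same-numbered libraries over 0.1. For ZT1 and ZT13 these correlations ran from 0.079 to 0.325. Whether same-numbered libraries shared a batch cannot be read from these values. Counts of all genes called were widest apart between edgeR and DESeq2 (81 and 569 among the 4 time points, 3 and 1987 for ZT1 and ZT19, 3 and 2079 for ZT7 and ZT19, 113 and 1775 for ZT13 and ZT19), and 22 were called for ZT13 and ZT19 without the libraries with over 50% of reads on genes. The keratinocyte score as a covariate lowered the count to 2 among the 4 time points and raised it to 1524 for ZT1 and ZT19, 869 for ZT7 and ZT19 and 867 for ZT13 and ZT19. Other normalizations moved the median of all genes by -0.29 to 0.39 on the log2 scale. The cause of these changes was not tested. Sele, Selp and Vcam1 had few reads, and the 95% intervals of Sele and Selp spanned over 5 on the log2 scale, which limits what these counts can show for them.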
